A study of Mus musculus with 8 samples.

Results

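Mitochondrial solute carriers of the SLC25 family were examined in livers of neonatal Myo5b knockout mice. The inner mitochondrial membrane is closed to most metabolites, and these carriers exchange nucleotides, phosphate, cofactors, carboxylic acids and amino acids between the cytosol and the matrix. In hepatocytes they feed oxidative phosphorylation, gluconeogenesis, urea synthesis and the export of citrate for lipid synthesis. The genes taken were the protein-coding genes of the count table named Slc25a with a number, other than Slc25a13, Slc25a15, Slc25a20, Slc25a37 and Slc25a38, with 10 or more counts in at least 4 of the 8 libraries. Of 42 such genes, 38 reached that minimum, among 48440 genes in the table and 18274 tested. Slc25a31, Slc25a41, Slc25a43 and Slc25a54 did not reach it, with no library above 14 counts. Of the 38 carriers, 36 had at least 10 counts in all 8 libraries. Slc25a2 did so in 4 knockout and 3 control libraries, and Slc25a35 in 2 knockout and 3 control libraries.

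RNA sequencing was done on whole livers of 4 pups that were germline Myo5b knockouts and of 4 control littermates, either heterozygous or wildtype, which the labels do not tell apart. All were CD1 mice of 3 to 8 days of age, and the age, sex and litter of each pup are not given. Summed Y-linked transcripts were 238 CPM in knockout 277, 237 CPM in control 279 and 233 CPM in control 281, and under 1 CPM in the other 3 knockout and 2 control livers. The deletion is not limited to the liver, so the livers also come from animals that lack myosin Vb, an actin motor of recycling endosomes, elsewhere. Library totals ran from 14228268 to 18398039 counts, and each library is a separate animal.

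Myo5b was 49.3 ± 7.06 CPM in knockout and 133 ± 33.1 CPM in control livers (CPM, counts scaled to a common library size, mean ± SD, n = 4 each), with a log2 fold change of -1.43 (SE 0.18, adjusted p = 3.14e-04). Fold changes are of knockout over control, and adjusted p-values are from edgeR's quasi-likelihood test over all 18274 genes, with a threshold of 0.05. Defining markers showed the tissue to be liver, with hepatocyte genes summing to between 84288 and 97483 CPM in knockout and between 107945 and 136687 CPM in control livers. Of those 12 genes 5 fell and 1 rose. The lower sum rested on albumin (Alb), at 27250 to 36872 CPM in knockout and 57166 to 76288 CPM in control livers, since the other 11 summed to between 57039 and 61747 CPM in knockout and between 50778 and 62668 CPM in control livers, which overlap. All 20 erythroid markers fell, and their sum was between 2358 and 4759 CPM in knockout and between 9483 and 12378 CPM in control livers. All 10 proliferation genes fell, to a sum of 818.8 to 1182 CPM in knockout livers, against 2102 to 2704 CPM in control livers. Of 12 macrophage markers 11 rose, and their sum was 1647 to 1917 CPM in knockout and 923.4 to 1060 CPM in control livers. Of 8 endothelial markers 6 rose, with sums of 1059 to 1255 CPM in knockout and 825.1 to 901.4 CPM in control livers. Of 6 megakaryocyte markers 3 fell and none rose, and of 8 stellate markers 2 rose and 2 fell. Of 8 neutrophil markers 1 fell and none rose, and none of 6 cholangiocyte markers was called. No marker on these lists was at 0 in every library of a group. A fit with the erythroid markers as a covariate is given below, and it could not part them from genotype. The part that other cell type shares have in the carrier results was not tested. In bulk RNA fewer cells of a type and less RNA per cell cannot be told apart.

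Knockout livers had carriers that moved in both directions. Of 38 carriers, 5 rose (Slc25a1, Slc25a22, Slc25a27, Slc25a33 and Slc25a47) and 7 fell (Slc25a10, Slc25a16, Slc25a21, Slc25a23, Slc25a25, Slc25a48 and Slc25a51). These 12 are 31.6% of the carriers, beside 20.7% of all genes tested, of which 9.27% were higher and 11.4% lower. With library size as the only scaling, 7 carriers rose and 6 fell, and 57.6% of all calls were higher in knockout livers, against 44.8% with TMM scaling. The median log2 fold change was -0.05 over the carriers and 0.01 over all genes tested. The changes ran from -1.17 for Slc25a48 to 1.09 for Slc25a30, and a change above 1 in size was called for Slc25a27, Slc25a48 and Slc25a51 and seen without a call for Slc25a30. Values of knockout and control livers did not overlap for 13 carriers, 34.2% of them, beside 23.6% of all genes tested. The sum over all carriers was 2013, 2119, 2162 and 2074 CPM in knockout livers 275 to 278, against 2225, 2251, 2030 and 1900.0 CPM in control livers 279 to 282, which overlap.

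**Figure D1:**
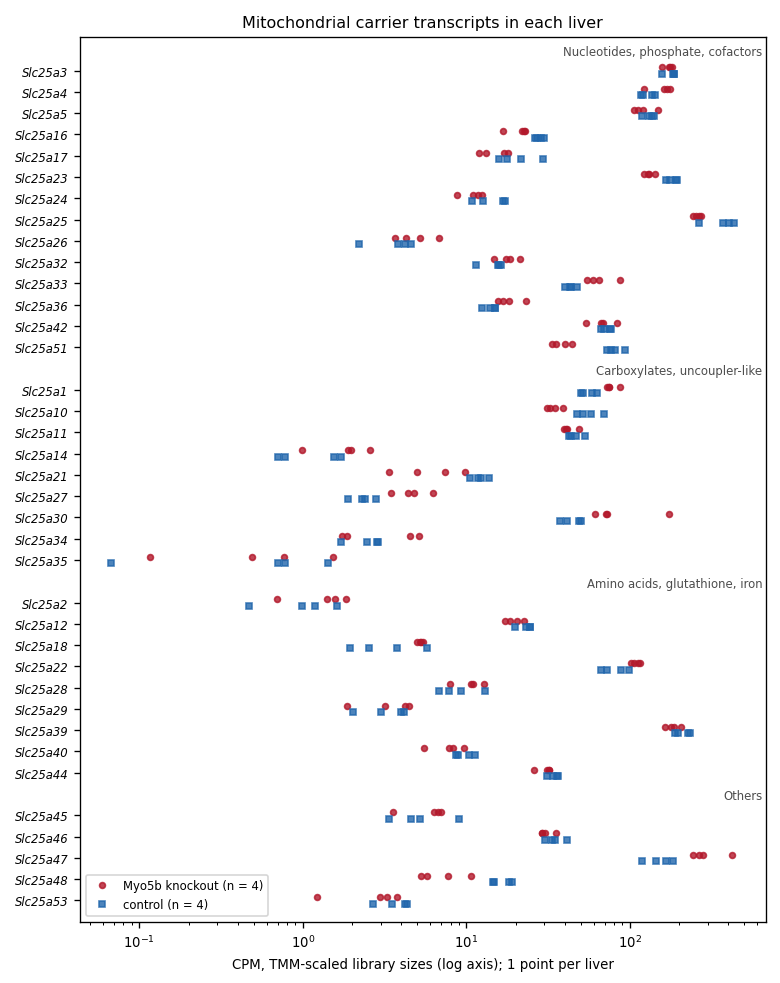
Level of 37 carriers in each liver (CPM, log axis; 1 point per liver, 4 Myo5b knockout livers as red circles and 4 control livers as blue squares), grouped by the kind of substrate. The groups are apart for 13 carriers, and the highest knockout point of Slc25a30 (174 CPM) lies well above the other knockout livers.

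**Figure D2:**
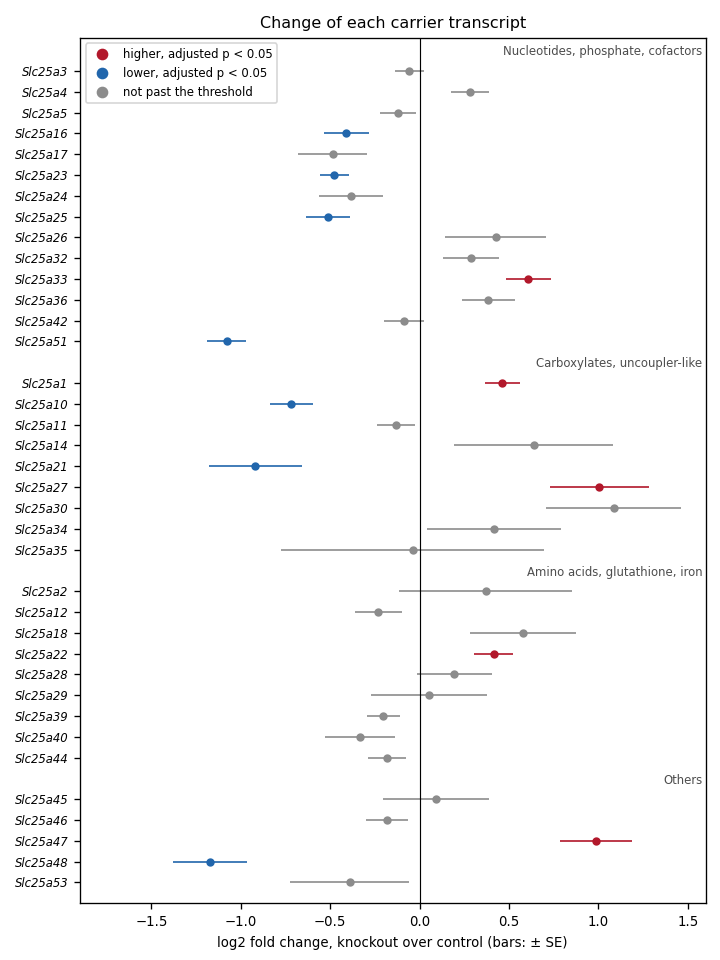
Log2 fold change of 37 carriers, knockout over control, with its SE as a bar, in the same order. Among them 5 (red) were higher and 7 (blue) lower at an adjusted p under 0.05, and the grey ones were not past it.

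Carrier levels per exon length spanned a wide range. In knockout livers Slc25a47, a carrier made mainly in liver, came first at 102 ± 27.1 CPM per kb of exon, followed by the ADP/ATP carrier Slc25a5 at 73.8 ± 11.4, the ADP/ATP carrier Slc25a4 at 66.7 ± 10.1 and the glutathione carrier Slc25a39 at 66.6 ± 6.42 (SD, n = 4). In control livers the order was Slc25a5 at 80.3 ± 5.84, Slc25a39 at 76.6 ± 7.81, Slc25a4 at 54.8 ± 5.26 and Slc25a47 at 51.3 ± 9.48 CPM per kb. Slc25a47 was thus first in knockout and the fourth in control livers. Neighbours among these first 4 had overlapping values, except Slc25a39 and Slc25a4 in control livers (68.4 to 84.2 against 49.5 to 60.4 CPM per kb). Slc25a25 was 32.9 ± 1.63 CPM per kb in knockout and 47.0 ± 9.43 in control livers, and the phosphate carrier Slc25a3 was 30.8 ± 1.89 in knockout and 32.1 ± 2.49 in control livers. At the low end stood Slc25a35, at 0.197 ± 0.163 CPM per kb in knockout and 0.202 ± 0.151 in control livers. Lengths are those of all annotated exons of a gene, so a long untranslated end that a liver does not use lowers a value.

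**Figure D3:**
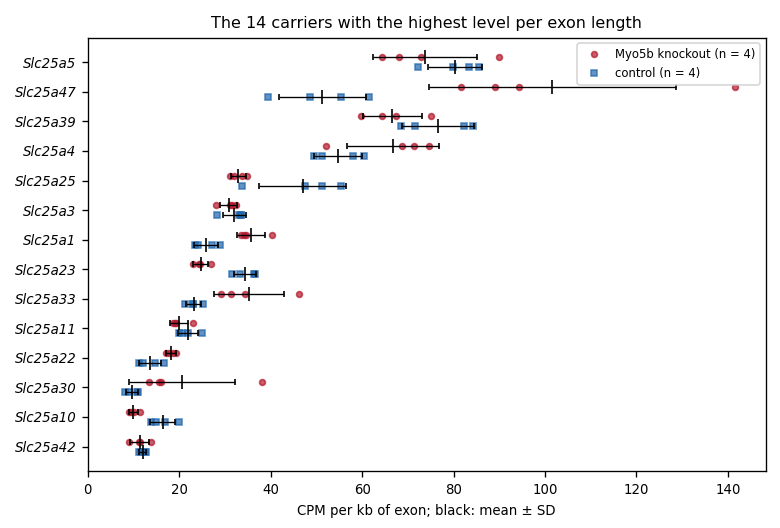
Level of the 14 carriers with the highest values, in CPM per kb of exon (points are livers, black marks the mean ± SD, n = 4), knockout above control for each gene. Slc25a47 has the highest mean in knockout livers (102 CPM per kb) and the fourth highest in control livers (51.3 CPM per kb).

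Among the 15 carriers of nucleotides, phosphate and cofactors, 4 fell and 1 rose (33.3%, beside 20.7% of all genes tested). In substrate groups this small such shares rest on few genes. Slc25a51, which brings NAD+ into the matrix, had 35.3, 44.3, 33.4 and 40.4 CPM in knockout livers 275 to 278, against 93.3, 72.1, 76.9 and 81.5 CPM in control livers 279 to 282. Every knockout liver was below every control liver. The gene lies on chromosome 4, 45395923 to 45408766 (GRCm38, GENCODE M21), and its log2 fold change of -1.08 (SE 0.11, adjusted p = 3.65e-06) had the smallest adjusted p of the 38 carriers. Without any single library it was between -1.16 and -1.004.

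The calcium-regulated ATP-Mg/phosphate carriers adjust the matrix pool of adenine nucleotides, and 2 of the 3 fell. Slc25a23 (chromosome 17, 57043711 to 57059863) had 130.0, 122, 143 and 129 CPM in knockout livers and 192, 194, 176 and 167 CPM in control livers, with no overlap and a log2 fold change of -0.48 (SE 0.08, adjusted p = 4.76e-04). Slc25a25 (chromosome 2, 32414487 to 32451445) had 264, 252, 274 and 245 CPM in knockout livers and 403, 436, 373 and 265 CPM in control livers. Its log2 fold change was -0.51 (SE 0.12, adjusted p = 0.00807), and control 282 lay inside the knockout range while the other 3 controls lay above it. Slc25a24 was 11.02 ± 1.58 in knockout and 14.4 ± 3.17 CPM in control livers (log2 fold change -0.38, SE 0.18, adjusted p = 0.145), and its groups overlapped. The exons of Slc25a23 and Slc25a25 share 3.17% and 4.82% of their length with genes on the other strand, Gm17168 and Naif1, which had at most 16 and 137 counts.

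Slc25a16, thought to carry coenzyme A, fell to 16.8, 21.7, 22.6 and 22.8 CPM in knockout livers, against 28.6, 29.6, 26.2 and 27.1 CPM in control livers (chromosome 10, 62920633 to 62946498). The groups did not overlap and the log2 fold change was -0.41 (SE 0.12, adjusted p = 0.0264). That call was lost without knockout 275 (-0.31), control 279 (-0.40) or control 280 (-0.38), and with library size alone (-0.34). The other coenzyme A carrier, Slc25a42, was 67.8 ± 12.0 in knockout and 72.1 ± 4.78 CPM in control livers and was not called (adjusted p = 0.643). The peroxisomal carrier Slc25a17 was 15.04 ± 2.97 in knockout and 21.1 ± 6.06 CPM in control livers (log2 fold change -0.49, SE 0.19, adjusted p = 0.0916), and among the alternatives it was called only without control 281 (-0.60) and with no low-count filter (-0.48).

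The pyrimidine nucleotide carrier Slc25a33 (chromosome 4, 149744036 to 149774277) rose, with 59.3, 54.8, 64.7 and 87.1 CPM in knockout livers against 43.2, 47.6, 40.2 and 43.5 CPM in control livers. All knockout livers were above all control livers, knockout 278 highest, and the log2 fold change was 0.61 (SE 0.13, adjusted p = 0.00251). An antisense gene, Gm13068, shares 14.9% of its exon bases and had at most 21 counts. Its relative Slc25a36 had 15.5, 23.0, 16.6 and 18.3 CPM in knockout livers against 12.5, 14.9, 13.9 and 15.01 CPM in control livers. Those groups did not overlap either, but the log2 fold change of 0.38 (SE 0.15, adjusted p = 0.0792) was not past the threshold, though it was with library size alone (0.45).

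The carriers that serve ATP synthesis directly were not called. Slc25a4, the ADP/ATP carrier of muscle and heart that liver also makes, had 176, 162, 168 and 122 CPM in knockout livers against 117, 142, 120 and 137 CPM in control livers. Its log2 fold change was 0.28 (SE 0.11, adjusted p = 0.0740), and knockout 278 lay among the controls. Without knockout 278 it was called, at 0.39, as it was with library size alone (0.35), in limma-voom (0.32) and with no low-count filter (0.28). Slc25a5, the ADP/ATP carrier of growing cells, was 121 ± 18.7 in knockout and 132 ± 9.6 CPM in control livers (log2 fold change -0.12, SE 0.10). A processed pseudogene, Slc25a5-ps, had 4 to 21 counts, and reads shared with such copies make the value of Slc25a5 less certain. Slc25a3 was 171 ± 10.5 in knockout and 178 ± 13.8 CPM in control livers (log2 fold change -0.06, SE 0.08). The carriers of S-adenosylmethionine (Slc25a26) and folate (Slc25a32) had log2 fold changes of 0.43 and 0.29, with adjusted p of 0.326 and 0.213. Slc25a26, with 34 to 106 counts, shares 3.00% of its exon length with Lrig1 on the other strand, which had 478 to 748 counts, and its level is uncertain for that reason.

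**Figure D4:**
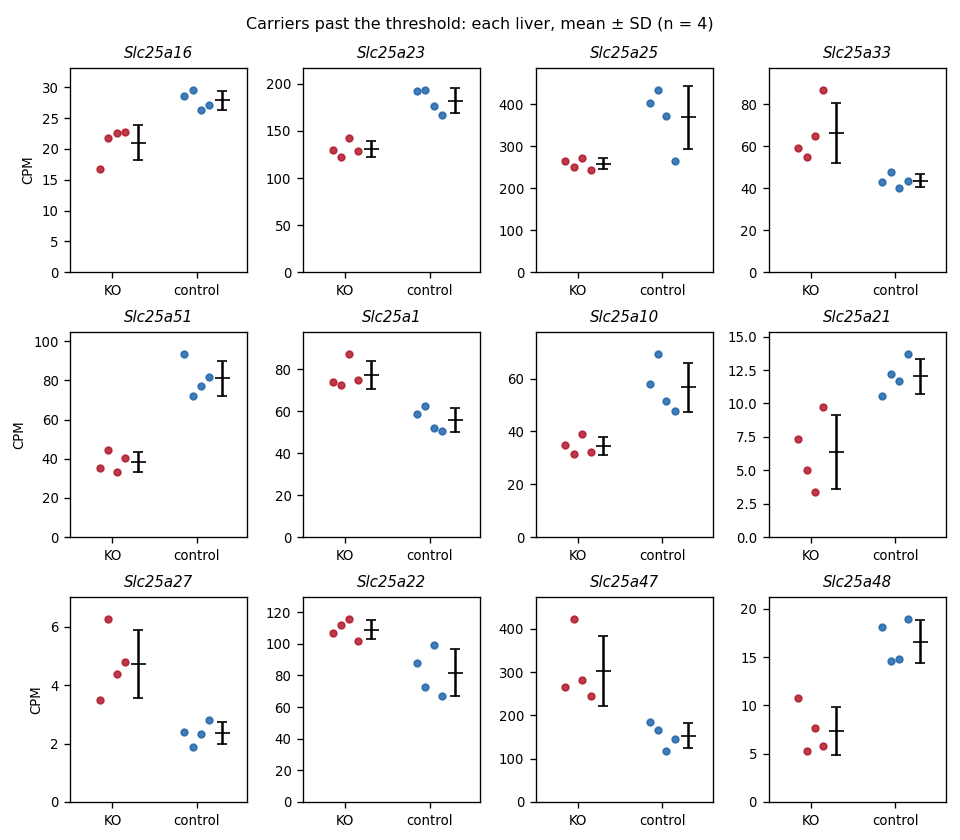
CPM of the 12 carriers past the threshold in each liver (points), with the mean ± SD at the right of each group (n = 4), knockout left of control and each axis from 0. The groups are apart in 11 of the 12, and in Slc25a25 control 282 (265 CPM) falls among the knockout livers.

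Among the 9 carriers of carboxylates and their uncoupler-like relatives, 2 rose and 2 fell (44.4%, beside 20.7% of all genes tested). Slc25a1, which exports citrate from the matrix, had 74.1, 72.5, 87.1 and 74.9 CPM in knockout livers against 58.7, 62.5, 52.0 and 50.5 CPM in control livers (chromosome 16, 17925223 to 17928219). Knockout livers were all higher, with a log2 fold change of 0.46 (SE 0.10, adjusted p = 0.00232). Slc25a10, which exchanges malate and succinate for phosphate, moved the other way, with 35.0, 31.3, 39.2 and 32.3 CPM in knockout livers against 58.0, 69.2, 51.7 and 47.8 CPM in control livers (chromosome 11, 120491840 to 120499187). Knockout livers were all lower, and the log2 fold change was -0.72 (SE 0.12, adjusted p = 3.79e-04). An antisense gene, Gm11788, covers 6.599% of its exons and had at most 18 counts. The oxoglutarate carrier Slc25a11, of the malate-aspartate shuttle, was 42.4 ± 4.19 in knockout and 46.4 ± 4.75 CPM in control livers (log2 fold change -0.13, SE 0.11, adjusted p = 0.434). Its exons share 8.91% of their length with Rnf167 on the other strand, which had 405 to 588 counts beside 642 to 922 for Slc25a11, so with the strand setting unknown its level is uncertain.

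Slc25a21, the carrier of oxoadipate from lysine and tryptophan breakdown, had 7.37, 4.98, 3.37 and 9.77 CPM in knockout livers against 10.5, 12.2, 11.7 and 13.7 CPM in control livers (chromosome 12, 56712634 to 57197472). Knockout livers were all lower, and the log2 fold change was -0.92 (SE 0.26, adjusted p = 0.0195). The call was lost without knockout 276 (-0.82), control 280 (-0.91) or control 282 (-0.85). Slc25a21 shares 3.88% of its exon length with Pax9 on the other strand. Pax9 had 6 to 22 counts beside 64 to 197 for Slc25a21, and the strand setting is unknown.

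Uncoupler-like carriers had the largest positive values of this group. Slc25a27, also known as UCP4 and best known from brain, had 3.48, 6.26, 4.37 and 4.79 CPM in knockout livers against 2.40, 1.88, 2.32 and 2.80 CPM in control livers (chromosome 17, 43641891 to 43667214). It rose without overlap (log2 fold change 1.01, SE 0.28, adjusted p = 0.0151), though without knockout 276 (0.84) it was not called. Slc25a30, a carrier first described in kidney mitochondria, had 61.0, 70.9, 72.7 and 174 CPM in knockout livers against 50.3, 37.5, 48.9 and 41.5 CPM in control livers (chromosome 14, 75760117 to 75787037). Every knockout liver was above every control liver, with knockout 278 far above the rest, but the log2 fold change of 1.09 (SE 0.38, adjusted p = 0.0970) was not past the threshold. Without knockout 278 it was smaller, 0.61, and called (adjusted p = 8.50e-04), and DESeq2 called it on all 8 livers (1.09, adjusted p = 0.0199). Knockout 278 also had the highest erythroid sum of the knockout livers, 4759 against 2358 to 3258 CPM. Slc25a14, or UCP5, was 1.86 ± 0.658 CPM in knockout and 1.19 ± 0.521 CPM in control livers, and Slc25a34 was 3.30 ± 1.76 CPM in knockout and 2.48 ± 0.539 CPM in control livers. Neither was called, nor was Slc25a35 (log2 fold change -0.04, SE 0.74).

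Slc25a1, Slc25a33, Slc25a10 and Slc25a25 are shown with the 250 bases before their RefSeq start (GRCm38.p6, 5′ to 3′), as 2 carriers that rose and 2 that fell, Slc25a1 and Slc25a10 being the oppositely moving carboxylate carriers. Capitals mark a CCAAT box or an E-box (CACGTG) on either strand. Promoters of 29 of the 38 carriers were found in the RefSeq table, 10 of them of carriers past the threshold.
Slc25a1 (chr16:17928220-17928469, minus strand): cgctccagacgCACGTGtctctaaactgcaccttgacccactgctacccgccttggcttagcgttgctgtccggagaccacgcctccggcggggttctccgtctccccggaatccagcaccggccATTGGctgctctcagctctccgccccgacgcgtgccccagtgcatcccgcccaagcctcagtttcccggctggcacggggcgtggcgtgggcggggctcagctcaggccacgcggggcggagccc
Slc25a33 (chr4:149774268-149774517, minus strand): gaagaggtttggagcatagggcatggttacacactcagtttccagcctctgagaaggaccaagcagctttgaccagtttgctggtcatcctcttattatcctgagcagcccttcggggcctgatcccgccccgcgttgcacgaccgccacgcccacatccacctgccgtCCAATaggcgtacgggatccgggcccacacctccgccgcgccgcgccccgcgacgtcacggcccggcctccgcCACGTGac
Slc25a10 (chr11:120491587-120491836, plus strand): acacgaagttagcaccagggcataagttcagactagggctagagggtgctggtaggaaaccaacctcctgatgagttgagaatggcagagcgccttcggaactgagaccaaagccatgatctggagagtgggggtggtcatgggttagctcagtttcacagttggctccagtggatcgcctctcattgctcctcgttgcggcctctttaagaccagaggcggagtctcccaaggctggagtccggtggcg
Slc25a25 (chr2:32451471-32451720, minus strand): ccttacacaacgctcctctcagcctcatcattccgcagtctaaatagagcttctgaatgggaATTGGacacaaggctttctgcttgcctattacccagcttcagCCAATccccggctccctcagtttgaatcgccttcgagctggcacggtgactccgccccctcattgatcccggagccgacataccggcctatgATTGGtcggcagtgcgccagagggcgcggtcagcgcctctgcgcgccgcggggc
Slc25a1 and Slc25a33 each hold a CCAAT box and an E-box in this window, Slc25a25 holds 3 CCAAT boxes and Slc25a10 neither. Among carriers past the threshold that are not shown, Slc25a47, which rose, holds a CCAAT box and no E-box. So do Slc25a21 and Slc25a23, which fell. Slc25a22, which rose, and Slc25a16 and Slc25a48, which fell, hold neither. CCAAT or its complement ATTGG was found in 15 of the 29 carrier promoters (51.7%) and in 33.8% of all 32851 promoter windows of the same length. CACGTG was found in 4 of 29 (13.8%; Slc25a1, Slc25a14, Slc25a33 and Slc25a36) and in 6.02% of all windows. The cyclic AMP response element TGACGTCA was found in Slc25a36 alone among the carriers (1.55% of all windows). The NRF1 site and the ERR element TCAAGGTCA were found in no carrier (0.782% and 0.387% of all windows). Both strands were searched for each. Sequences that rare are hardly to be found in 29 windows, so their absence decides nothing about the carriers. Carrier promoters were richer in G and C, with a median of 60.0% against 52.4% over all windows. Each carrier entered with the window nearest its annotated start. For Slc25a47 that window (chromosome 12, 108850879 to 108851128) lies inside the annotated gene, which starts at 108836046. All windows were limited neither by gene nor to genes detected in liver, so these shares compare unlike sets.

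Among the 9 carriers of amino acids, glutathione and iron, 1 rose and none fell in edgeR's test (11.1%, beside 20.7% of all genes tested). At an unadjusted p under 0.05, 1 was higher and 1 lower. Slc25a22, a glutamate carrier, had 107, 112, 116 and 102 CPM in knockout livers against 87.9, 72.9, 99.3 and 66.8 CPM in control livers (chromosome 7, 141429744 to 141437892). Knockout livers were all higher, the lowest of them only just above the highest control, with a log2 fold change of 0.41 (SE 0.11, adjusted p = 0.0124). The second glutamate carrier, Slc25a18, was level in knockout livers (5.22, 5.24, 5.00 and 5.40 CPM) and spread in control livers (2.53, 1.94, 3.74 and 5.75 CPM). It was not called (log2 fold change 0.58, SE 0.30, adjusted p = 0.191), but was without control 282 (0.92, adjusted p = 0.0356). It had 29 to 95 counts, and 1.67% of its exon length is shared with Atp6v1e1 on the other strand, which had 1071 to 1809 counts, so that its level is uncertain too.

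Slc25a39, which imports glutathione, had 177, 164, 186 and 207 CPM in knockout livers against 232, 227, 189 and 197 CPM in control livers, and the groups overlapped (log2 fold change -0.20, SE 0.09, adjusted p = 0.140). Without knockout 278 it was called at -0.26 (adjusted p = 0.0492). Its close relative Slc25a40 was 7.81 ± 1.74 in knockout and 9.81 ± 1.27 CPM in control livers. The aspartate/glutamate carrier Slc25a12, the branched-chain amino acid carrier Slc25a44 and the iron carrier Slc25a28 (mitoferrin 2) had log2 fold changes of -0.23, -0.18 and 0.20, with adjusted p of 0.236, 0.269 and 0.577. The basic amino acid carriers Slc25a2 and Slc25a29 were low, at 1.38 ± 0.491 and 3.42 ± 1.18 CPM in knockout and 1.07 ± 0.479 and 3.28 ± 0.977 CPM in control livers. Of the 5 genes named Slc25a that were left out, the second aspartate/glutamate carrier Slc25a13 fell (-0.24, adjusted p = 0.0457). The ornithine carrier Slc25a15 (-0.64, adjusted p = 1.57e-04) fell as well. So did the erythroid iron importer Slc25a37 (-1.92, adjusted p = 0.00460) and the glycine carrier Slc25a38 (-0.54, adjusted p = 0.00875). The carnitine carrier Slc25a20 was -0.04 (adjusted p = 0.835).

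Of the 5 remaining carriers, Slc25a47 rose and Slc25a48 fell (40%, beside 20.7% of all genes tested). Slc25a47 (chromosome 12, 108836046 to 108856815) had 266, 423, 281 and 244 CPM in knockout livers against 184, 165, 118 and 145 CPM in control livers. Knockout livers were all higher, knockout 276 highest, with a log2 fold change of 0.99 (SE 0.20, adjusted p = 0.00893). Its neighbour on the chromosome, Slc25a29, was not called (log2 fold change 0.05, SE 0.33). Slc25a48, linked to choline uptake by mitochondria, had 10.7, 5.24, 7.69 and 5.77 CPM in knockout livers against 18.1, 14.6, 14.8 and 18.9 CPM in control livers (chromosome 13, 56438355 to 56474239). Knockout livers were all lower, and its log2 fold change of -1.17 (SE 0.21, adjusted p = 6.34e-04) was the lowest of the 38. Slc25a45, Slc25a53 and the outer-membrane protein Slc25a46, which acts in mitochondrial fission and fusion, had log2 fold changes of 0.09, -0.39 and -0.18 and were not called (adjusted p from 0.316 to 0.871).

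Related carriers were set against each other in each liver, in 8 pairs. For Slc25a10 over Slc25a11 the log2 ratio was -0.21, -0.39, -0.31 and -0.29 in knockout livers against 0.46, 0.38, 0.24 and 0.04 in control livers, which differ by -0.58. The two-sided exact permutation p was 0.0286, and 4 livers a group allow none smaller, with 0.229 after adjustment over the 8 pairs. For Slc25a4 over Slc25a5 it was 0.55, 0.53, 0.18 and 0.21 in knockout livers against -0.24, 0.01, -0.13 and 0.20 in control livers, a difference of 0.41 (exact permutation p = 0.0571, 0.229 adjusted). In CPM, which is not corrected for length, Slc25a10 thus lay below Slc25a11 in every knockout liver and above it in every control liver. Per kb of exon Slc25a10 lay below Slc25a11 in every liver of both groups, with means of 16.4 and 21.9 CPM per kb in control livers. The ratio thus shows a shift between the groups and not which transcript was higher. The level of Slc25a11, which shares exon bases with Rnf167, is uncertain, and so is its ratio to Slc25a10. No pair passed after adjustment over the 8 pairs. However, a pair alone at the smallest exact permutation p of 0.0286 can reach no less than 0.229 there. The adjusted test could pass a pair only if several reached that smallest p, so it decides nothing on this pair. The differences of the other 6 pairs, between -0.34 for Slc25a14 over Slc25a30 and 0.22 for Slc25a33 over Slc25a36, had exact permutation p from 0.371 to 0.714.

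Genes of mitochondrial transport that are not named Slc25a moved down more than up. Of 22 further mitochondrial transporters and channels tested, 8 fell (36.4%) and none rose in edgeR's test. Over all genes tested, 11.4% were lower and 9.27% higher. At an unadjusted p under 0.05, 9 of the 22 were lower and 1 higher. Without knockout 275 there were 5 that fell, and with the erythroid covariate 0. Without control 281, and likewise in DESeq2 and with no low-count filter, 1 rose. Abcb10, an inner-membrane ABC transporter needed by red cell precursors, averaged 42.5 ± 10.8 CPM in knockout livers and fell, control livers lying between 84.3 and 115 CPM. On the log2 scale it changed by -1.24 (SE 0.17, adjusted p = 5.13e-04). The outer-membrane channel Vdac1 (-0.48, SE 0.09), the uncoupling protein Ucp2 (-0.59, SE 0.11) and the sideroflexin Sfxn2 (-0.48, SE 0.10) fell too, with adjusted p from 0.00122 to 0.00183. The erythroid sum was also lower in these knockout livers (2358 to 4759 CPM, against 9483 to 12378 CPM in control livers). Its part in these falls cannot be told apart from that of genotype.

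Of 27 enzymes that make or use the carriers' substrates, 11 fell and 2 rose, beside 11.4% lower and 9.27% higher over all genes tested. Without knockout 278 there were 4 that rose, and with the erythroid covariate 1 fell and 1 rose. The mitochondrial serine hydroxymethyltransferase Shmt2 fell to 60.6 ± 8.22 CPM in knockout livers, against 121 ± 13.6 CPM in control livers (log2 fold change -0.99, SE 0.11, adjusted p = 7.11e-06). The enzymes of the glycerol phosphate shuttle moved apart, as cytosolic Gpd1 was -0.83 (SE 0.09) and mitochondrial Gpd2 0.80 (SE 0.12), with adjusted p of 8.43e-06 and 1.94e-04. Idh2, the matrix NADP-linked isocitrate dehydrogenase, fell by 0.56 (SE 0.10, adjusted p = 4.71e-04).

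Neither the machinery that inserts carriers into the inner membrane nor regulators of mitochondrial biogenesis had more calls than the background. None of 15 import genes was called by edgeR, by DESeq2 or under the other alternatives run, 0 had an unadjusted p under 0.05, and their log2 fold changes ran from -0.26 for Timm22, the pore of the insertion complex, to 0.33 for the chaperone Timm10. Tomm22 and Agk, of the outer-membrane receptor and the insertion complex, were -0.22 and 0.21 (adjusted p of 0.238 and 0.416). Of 15 biogenesis genes, 1 rose and 1 fell. The mitochondrial DNA polymerase Polg rose (0.27, SE 0.08, adjusted p = 0.0296), but it was not called without control 279 or knockout 275, 276 or 277. The fatty acid receptor gene Ppara fell (-0.25, SE 0.08, adjusted p = 0.0283), and was not called without control 279 or 282, or without knockout 275 or 278. It was not called either with library size alone, upper-quartile scaling, the Y-linked covariate or no low-count filter, and under each of those 4 settings 2 biogenesis genes rose. With knockout 278 and control 282 left out together it was also not called. The coactivator Pprc1 (0.31) and the transcription factor Tfb2m (0.38) were not called (adjusted p of 0.0762 and 0.162).

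**Figure D5:**
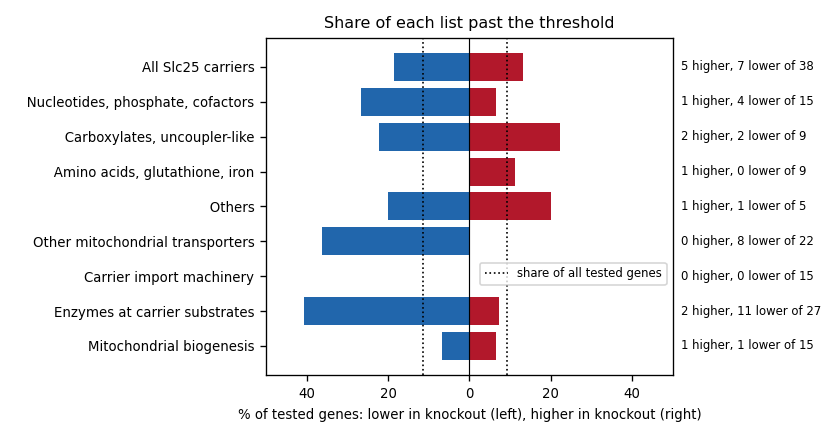
Share of the tested genes of each list that were lower (left, blue) or higher (right, red) in the knockout, adjusted p under 0.05, with the counts at the right. Dotted lines mark the shares over all 18274 genes tested, 11.4% lower and 9.27% higher. The further mitochondrial transporters (8 lower of 22) and the enzymes (11 lower of 27) reach farthest to the left, and the import machinery has none.

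Erythroid marker expression moved with genotype across the 8 livers, with a correlation of -0.95, and as a covariate it raised the variance of the genotype estimate 9.75-fold. In that fit 23 genes were higher and 15 lower over all genes, and Slc25a30 was the only carrier called (log2 fold change 3.24, adjusted p = 0.0110). Slc25a30 was 174 CPM in knockout 278, against 61.0 to 72.7 CPM in the other knockout livers. Knockout 278 also had the highest erythroid sum among knockout livers, and the fit with the covariate was not run without it. With the covariate, 11 of the 12 carriers past the threshold kept their direction and none its call. The median SE was 0.35 against 0.12 without the covariate. Slc25a10 (-1.28), Slc25a33 (1.27) and Slc25a48 (-2.01) had larger values than without it, Slc25a51 (-0.46) and Slc25a1 (0.17) smaller ones, and Slc25a21 turned to 0.47. The part of genotype and that of the erythroid fall cannot be told apart in these livers.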

How the data were processed

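Sequenced RNA came from the whole liver of 8 CD1 pups, 4 knockout and 4 control, extracted with Trizol and a column kit per the labels' protocols. Raw read counts per Ensembl gene were deposited by the authors. Reads were aligned with Rsubread 2.20.0 in R 4.4.1 (BiocManager 1.30.26) to a build written as GRMm38, read here as GRCm38, per the labels' protocols. The submitters' processing notes name featureCounts as the counter. Annotation, strand setting and treatment of reads with several matches are unstated in the sources used here, so values of genes with copies or with overlapping genes on the other strand are uncertain.

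Symbols and coordinates came from GENCODE M21. The test on the deposited counts was edgeR's (version 4.0.16, run in R 4.3.3): filterByExpr defaults (minimum count 10, minimum total 15), TMM scaling, genotype as the only term, robust quasi-likelihood F-test and Benjamini-Hochberg adjustment over 18274 genes. The SE is the log2 fold change divided by the square root of F. Log2 ratios of pairs used a prior count of 2 and exact permutation over samples (scipy 1.17.1). Libraries of a group differed beyond sampling noise (chi-square over its degrees of freedom, 11.9 to 21.8). The test was tried on simulated counts. Alternatives were other scalings, no filter or 10 counts in 4 libraries, DESeq2 1.42.0, and limma-voom (3.58.1) with a quality weight for each library. Others were erythroid and Y-linked covariates, leaving out the 10 genes above 1% of counts, and leaving out libraries. Pc, listed as a partner enzyme, and Tf, a hepatocyte marker, were matched through RefSeq synonyms to Pcx and Trf. The carriers, lists and tests were chosen with earlier results of these data known. Every carrier past the threshold is given in full and the others by name, except that 1 carrier, counted among the 38, is not reported here, and in each related list up to 4 genes with the smallest p are named.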

Additional observations from a re-analysis of the deposited data

Results flagged for a closer look

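With 4 livers a group, 5 of 78 groups of values (38 carriers and Myo5b) had a liver whose gap to the next one was above Dixon's 95% critical share of the group's range, and chance alone gives about 1 in 20. Slc25a30 was 174 CPM in knockout 278 against 61.0 to 72.7 CPM in the other knockout livers. Slc25a1 was 87.1 CPM in knockout 277 against 72.5 to 74.9 CPM in the others, and Slc25a44 was 25.99 CPM in knockout 275 against 31.1 to 32.1 CPM. Control 282 was low for Slc25a3, at 157 CPM against 183 to 186 CPM in the other controls, and for Slc25a32, at 11.4 CPM against 15.6 to 16.4 CPM.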

How the results depend on the processing

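No paired analysis was possible because the labels do not say which knockout and control pups are of the same litter, and the groups share no replicate numbers. The counts of carriers, 5 higher and 7 lower, stayed within 1.5 times under all alternatives except the erythroid covariate, which gave 1 higher and 0 lower, and 23 higher and 15 lower over all genes against 1694 and 2088. Without single libraries, 4 to 7 carriers were higher and 5 to 8 lower, and 1223 to 1762 and 1699 to 2167 of all genes. Carriers that were not called changed sign. With the erythroid covariate these were Slc25a4 (-0.56, against 0.28 without it), Slc25a26 (-0.21, against 0.43), Slc25a14 (-0.013), Slc25a39 (0.053) and Slc25a40 (0.15), beside the called Slc25a21 (0.47). They were also, with the Y-linked covariate Slc25a35 (0.30); with library size alone Slc25a3 (0.014) and Slc25a35 (0.026); in limma-voom Slc25a29 (-0.029); and with knockout 278 and control 282 left out together Slc25a28 (-0.029), Slc25a29 (-0.27), Slc25a35 (0.081) and Slc25a42 (0.040). The cause was not tested. Without single libraries Slc25a29 ran from -0.12 to 0.26, Slc25a35 from -0.72 to 0.49, Slc25a42 from -0.21 to 0.0098 and Slc25a45 from -0.088 to 0.43. The pair differences ran from -0.023 to 0.30 for Slc25a39 over Slc25a40, -0.25 to 0.047 for Slc25a23 over Slc25a24 and -0.37 to 0.090 for Slc25a25 over Slc25a24. With 3 livers against 4 no pair can pass the adjusted threshold. At counts as low as those of Slc25a35 and Slc25a2, with SEs of 0.74 and 0.48, moderate changes were not detectable at this depth.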
